A study of Mus musculus with 18 samples.

Results

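Lipoprotein lipase and 6 genes that act beside it on lipoproteins and fatty acids were followed across 6 groups of 3 mouse RNA sequencing libraries. The 7 genes are Lpl, Lmf1, Pltp, Vldlr, Lrp1, Lrp2 and Cd36, out of 15288 genes in the table, and all 7 were found there by symbol. They were selected on gene function with values of these same libraries already known. Which of those values were used is not recorded. Every level below is therefore a description, and the adjusted p-values set each difference against the spread between libraries and are not independent evidence for the choice of genes.

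The cells are labelled as pulmonary microvascular endothelial cells, which line the small vessels of the lung, while the series title speaks of smooth muscle cells. Cells were transfected with siRNA against CYP1B1 (siCYP1B1), a cytochrome P450 that metabolizes estradiol, or with a scrambled siRNA. At 24 hours they were given 1 uM 16aOHE or 1 uM E2 for another 24 hours, or vehicle. Serum of 5% is listed for all groups. E2 is estradiol, and 16aOHE is the short name of a hydroxylated estrone, an estrogen metabolite. The 6 groups are thus siCYP1B1 with 16aOHE, with E2 or with vehicle and scrambled siRNA with 16aOHE, with E2 or with vehicle, 3 libraries each, numbered here only to name them. All groups received siRNA and lipid transfection, so an effect of transfection or of the scrambled siRNA itself cannot be told apart from the state of the cells. The labels do not state whether libraries of a group are separate cultures, so the p-values reflect the spread between the sampled libraries alone, and that spread may be technical. In bulk libraries, fewer cells of a type and less RNA per cell cannot be told apart.

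Lipoprotein lipase is secreted by cells such as adipocytes, muscle cells and macrophages and works on the luminal face of capillaries, where it releases fatty acids from the triglycerides of chylomicrons and very low density lipoproteins. It folds in the endoplasmic reticulum with the help of the chaperone encoded by Lmf1. Members of a family of endocytic lipoprotein receptors, among them the products of Vldlr, Lrp1 and Lrp2, take up the remaining particles and also bind the lipase itself, and Cd36 encodes a scavenger receptor that aids fatty acid uptake. Pltp encodes a plasma protein that moves phospholipids from triglyceride-rich particles to high density lipoproteins as they are lipolysed.

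Levels are given in CPM, which are counts scaled to each library's total. At the estimated depth 1 CPM stood for 14 to 38.4 reads, so that Lpl rested on at least 9523 reads in each library, Vldlr on at least 267 and Cd36 on 1.99 to 15. Cyp1b1 itself, the target of the siRNA, averaged 81.5, 103 and 90.1 CPM with siCYP1B1 in the vehicle, E2 and 16aOHE arms, against 92.2, 118 and 106 CPM with scrambled siRNA. No Cyp1b1 value overlapped between the siRNAs within an arm, and the limma difference averaged over the arms was -0.20 on the log2(CPM + 1) scale (adjusted p = 5.83e-08). Most Cyp1b1 RNA thus remained with siCYP1B1, and its protein was not measured here. The differences below are between siRNAs, and an effect of CYP1B1 loss cannot be told apart from other effects of the siRNA. The table held 7 of 12 endothelial markers looked for. Pecam1 and Vwf, which define endothelium, averaged 0.0482 and 0.0306 CPM, with no read in 8 and 12 of 18 libraries, although Flt1 averaged 70.0 and Cd34 107 CPM. All 7 listed smooth muscle markers were in the table and 4 averaged at least 1 CPM. Cald1 averaged 965, Smtn 90.1, Acta2 20.5 and Tagln 2.66 CPM, while Des averaged 0.727, Cnn1 0.106 and Myh11 0.0765 CPM. All 7 of the 8 listed mesothelial markers that were in the table exceeded 10 CPM, led by Msln at 1521 and Upk3b at 825 CPM. The 9 listed fibroblast and pericyte markers were all in the table and 5 averaged at least 10 CPM, led by Col3a1 at 2488 and Col1a1 at 1946 CPM. Cspg4, Rgs5 and Lum of that list averaged 0.217, 0.0611 and 0.0428 CPM. Library siCYP1B1 16aOHE 2 stood apart in the level of long transcripts, as described with Lrp1 and Lrp2 below.

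Promoter windows are printed for the genes that moved with 1 estrogen in each siRNA group and whose RefSeq window meets the gene start of the table, with the 250 bases upstream of the start, 5′ to 3′ on the gene's strand (RefSeq, GRCm38.p6). For Vldlr, which rose with E2, the window is chr19:27216234-27216483 on the plus strand. For Pltp, which fell with 16aOHE, it is chr2:164857709-164857958 on the minus strand. Capitals mark letters found by a search of both strands for AGGTCA, the half-site bound by estrogen receptors and other nuclear receptors, for ACGTG or GCGTG, cores bound by HIF and by the aryl hydrocarbon receptor complex, and for GGGCGG, the GC box. None of these motifs overlapped in the windows shown.
Vldlr: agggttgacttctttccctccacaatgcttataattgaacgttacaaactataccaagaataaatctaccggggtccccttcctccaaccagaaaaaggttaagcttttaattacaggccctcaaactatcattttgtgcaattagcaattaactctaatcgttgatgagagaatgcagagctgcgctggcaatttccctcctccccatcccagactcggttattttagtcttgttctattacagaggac
Pltp: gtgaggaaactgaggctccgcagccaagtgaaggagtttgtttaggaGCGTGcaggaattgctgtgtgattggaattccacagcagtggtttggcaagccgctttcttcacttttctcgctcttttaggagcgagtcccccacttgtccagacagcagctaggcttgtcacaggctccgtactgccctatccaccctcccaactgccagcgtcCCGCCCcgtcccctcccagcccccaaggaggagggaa
The Pltp window held GCGTG at -203 and a GC box on the opposite strand at -37 from the gene start. The printed Vldlr window held no match of the searched letters, which says only that they are not in these 250 bases. RefSeq lists a second Vldlr window, chr19:27216770-27217019, which starts within the gene of the table and held a GC box on the opposite strand at -42 from its own start, with a GC content of 66.4%. Of 32851 windows of the same length, 14% held the half-site, 38.6% an ACGTG or GCGTG core and 32.7% a GC box. The GC content of the printed windows was 41.6% for Vldlr and 57.6% for Pltp, against a median of 52.4% over all windows. A match is a description of the letters and not a bound site.

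Per kilobase of transcript, the mean level over the 18 libraries was highest for Lpl, at 144 CPM per kb, followed by Pltp at 92.7 and Lrp1 at 57.7 CPM per kb. Lmf1 with 4.87, Vldlr with 2.68 and Lrp2 with 1.89 CPM per kb were at least an order of magnitude lower, and Cd36 had 0.0906 CPM per kb. By mean CPM, Lpl stood above 98.9% of the genes in the table. On the mm10 build of the table, Lpl lies on chromosome 8 at 68880555 to 68906932, Lmf1 on chromosome 17 at 25579174 to 25662826 and Pltp on chromosome 2 at 164839518 to 164857708. Vldlr lies on chromosome 19 at 27216484 to 27254231, Lrp1 on chromosome 10 at 127538158 to 127621148, Lrp2 on chromosome 2 at 69424335 to 69586067 and Cd36 on chromosome 5 at 17781690 to 17888959. The Pltp locus overlaps that of Ctsa on the opposite strand, which averaged 156 CPM. The strand setting of the counting is not given in the sources used, so reads of the shared stretch cannot be told apart. Lrp1 likewise overlaps an antisense gene, Gm16217, which has no row among those analysed.

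**Figure D1:**
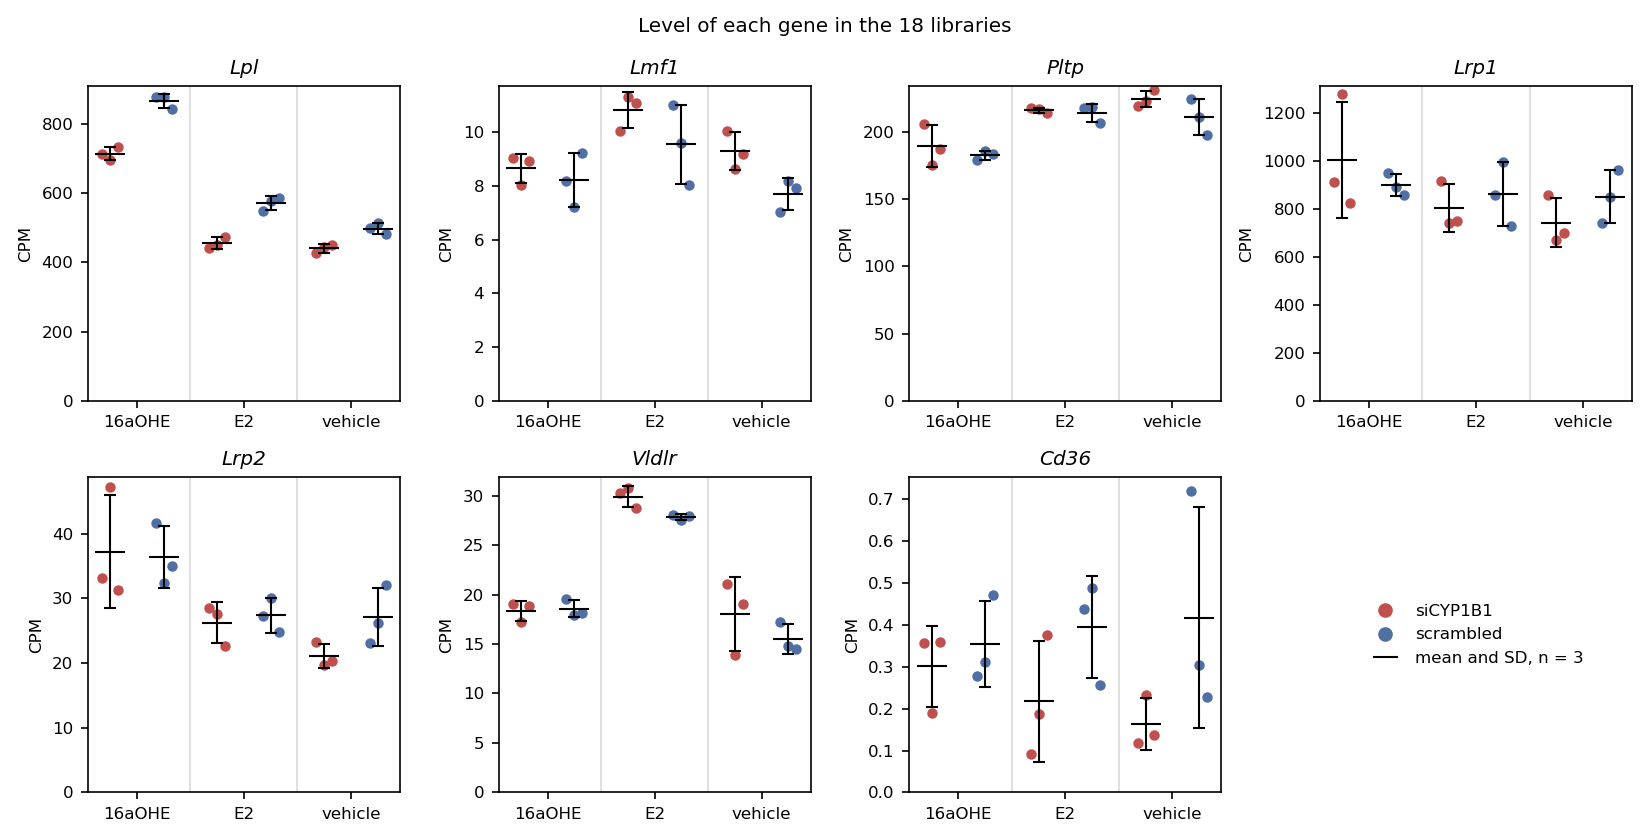
CPM of the 7 genes in each of the 18 libraries (points), with the mean and SD of each group of 3 (bars); each panel has its own vertical axis, which starts at 0. Lpl was highest in the 16aOHE groups and Vldlr in the E2 groups, with both siRNAs, and Cd36 stayed below 1 CPM in every library.

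Lpl was the gene of this set that moved most clearly, and it did so with 16aOHE. In scrambled siRNA cells it stood at 878, 878 and 843 CPM with 16aOHE, against 499, 513 and 482 CPM with vehicle. In siCYP1B1 cells it stood at 713, 696 and 733 CPM with 16aOHE, against 427, 445 and 451 CPM with vehicle. Every 16aOHE library was above every vehicle library of its siRNA, and the group means rose by 74.0% and 61.9%. On the log2(CPM + 1) scale, the differences were 0.80 (SE 0.0368) in scrambled and 0.69 (SE 0.0368) in siCYP1B1 cells, with limma adjusted p = 1.05e-11 and 1.68e-10. Among the 11835 genes tested, Lpl had the lowest adjusted p in both comparisons, and its difference ranked 11th and 13th among increases.

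With E2, Lpl moved less. The E2 libraries held 548, 578 and 587 CPM in scrambled cells, all above the 482 to 513 CPM of vehicle, and the difference was 0.20 on the log2(CPM + 1) scale (limma adjusted p = 0.000372). In siCYP1B1 cells the E2 libraries held 441, 451 and 474 CPM, which overlapped the 427 to 451 CPM of vehicle, and the difference was 0.05 with a 95% interval of -0.03 to 0.12 (adjusted p = 0.386). That E2 passed the threshold with one siRNA and missed it with the other does not show that the E2 effects differ. The interaction of siRNA and E2 was -0.15 (95% interval -0.26 to -0.04), with an unadjusted p of 0.00844 and an adjusted p of 0.998. The interaction with 16aOHE was -0.10 (adjusted p = 0.966).

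Set directly against E2 at the same dose and time, 16aOHE gave higher Lpl by 0.60 in scrambled cells and 0.65 in siCYP1B1 cells on the log2(CPM + 1) scale (adjusted p = 7.1e-10 and 1.61e-10). 16aOHE and E2 differ in structure, 16aOHE being an estrone with an added hydroxyl group, whereas estradiol carries a hydroxyl group in place of the ketone. The 16aOHE groups averaged 866 ± 20.4 CPM in scrambled and 714 ± 18.7 CPM in siCYP1B1 cells, against 571 ± 20.1 and 455 ± 17.0 CPM with E2 (SD, n = 3 each). No library of a 16aOHE group overlapped its E2 group.

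Lpl was also lower with siCYP1B1 than with scrambled siRNA in all 3 arms, without overlap of the libraries. The mean was 441 CPM with siCYP1B1 against 498 CPM with scrambled siRNA in vehicle, 455 against 571 CPM in E2 and 714 against 866 CPM in 16aOHE. The means thus differed by -11.4%, -20.3% and -17.6%, and the log2(CPM + 1) differences were -0.17, -0.33 and -0.28 (limma adjusted p = 0.00183, 1.6e-06 and 1.64e-05). Averaged over the arms the difference was -0.26 (adjusted p = 3.52e-09). From high to low, the 6 groups ran scrambled 16aOHE, siCYP1B1 16aOHE, scrambled E2, scrambled vehicle, siCYP1B1 E2 and siCYP1B1 vehicle. Only the last pair of neighbours in that order overlapped. Each comparison of E2 or 16aOHE with vehicle shares its vehicle libraries with the other, so these differences are not independent. The estrogens were set against each other in the direct comparison above.

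Marker sums moved with the siRNA as well. The 7 mesothelial markers summed to 3817 to 3993 CPM with siCYP1B1 against 4872 to 4944 CPM with scrambled siRNA in vehicle, and to 4516 to 4664 CPM with 16aOHE in scrambled cells. The 7 endothelial markers summed to 186 to 187 CPM with siCYP1B1 against 257 to 297 CPM with scrambled siRNA in vehicle, and to 232 to 238 CPM with 16aOHE in scrambled cells. Both sums were thus lower with 16aOHE, under which Lpl was higher, and lower with siCYP1B1, under which Lpl was lower. The 9 fibroblast and pericyte markers summed to 5233 to 5531 CPM with siCYP1B1 against 6562 to 6922 CPM with scrambled siRNA in vehicle. Their part in the Lpl values was not tested. Of the cell types known for lipoprotein lipase, adipocytes had 1 of 7 listed markers in the table, Fabp4 at 3.38 to 6.33 CPM. The macrophage markers Ptprc and Itgam had no read in 11 of 18 libraries each, and Csf1r and Mrc1 averaged 0.6804 and 0.3199 CPM. Cd14 and Cd68 of that list were read in every library and averaged 21.99 and 12.28 CPM. The 6 macrophage markers present summed to 33.0 to 35.2 CPM with 16aOHE against 34.8 to 38.7 CPM with vehicle in scrambled cells.

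Lmf1, the maturation factor of the lipase, was low. It averaged 8.65 ± 0.554, 10.8 ± 0.673 and 9.29 ± 0.704 CPM with siCYP1B1 in the 16aOHE, E2 and vehicle arms, against 8.22 ± 1.01, 9.56 ± 1.48 and 7.71 ± 0.591 CPM with scrambled siRNA (SD, n = 3 each). Averaged over the arms, the siRNA difference of 0.16 on the log2(CPM + 1) scale passed the threshold (limma adjusted p = 0.0357). It no longer passed when any 1 of 9 libraries was left out, nor with median-of-ratios scaling or with no filter on low genes. None of its differences with E2 or 16aOHE passed. The closest were E2 against vehicle in scrambled cells, 0.27 (adjusted p = 0.057), and 16aOHE against E2 in siCYP1B1 cells, -0.29 (adjusted p = 0.0566). The former passed without scrambled E2 3 (0.376, adjusted p = 0.0139). The latter passed with a pseudocount of 5 (-0.213, adjusted p = 0.0475) and without scrambled E2 1 or 3 (-0.293 each, adjusted p = 0.044 and 0.0389).

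Pltp, the phospholipid transfer protein gene, fell with 16aOHE. In scrambled cells it stood at 179, 186 and 183 CPM with 16aOHE, against 224, 211 and 198 CPM with vehicle. In siCYP1B1 cells it stood at 206, 175 and 187 CPM with 16aOHE, against 219, 223 and 231 CPM with vehicle. The groups did not overlap with either siRNA. The log2(CPM + 1) differences were -0.21 in scrambled and -0.25 in siCYP1B1 cells (limma adjusted p = 0.0166 and 0.00376), and against E2 they were -0.23 and -0.19 (adjusted p = 0.00231 and 0.00889). E2 against vehicle gave 0.02 in scrambled and -0.06 in siCYP1B1 cells, and siCYP1B1 against scrambled gave 0.01 to 0.09 in the arms, none past the threshold. The fall against vehicle in scrambled cells lost its call without any 1 of 4 libraries, scrambled vehicle 1 or 2 or scrambled 16aOHE 1 or 3 (highest adjusted p over all alternatives 0.117). The fall against E2 in siCYP1B1 cells lost it without siCYP1B1 16aOHE 2, to -0.14 (adjusted p = 0.0697).

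**Figure D2:**
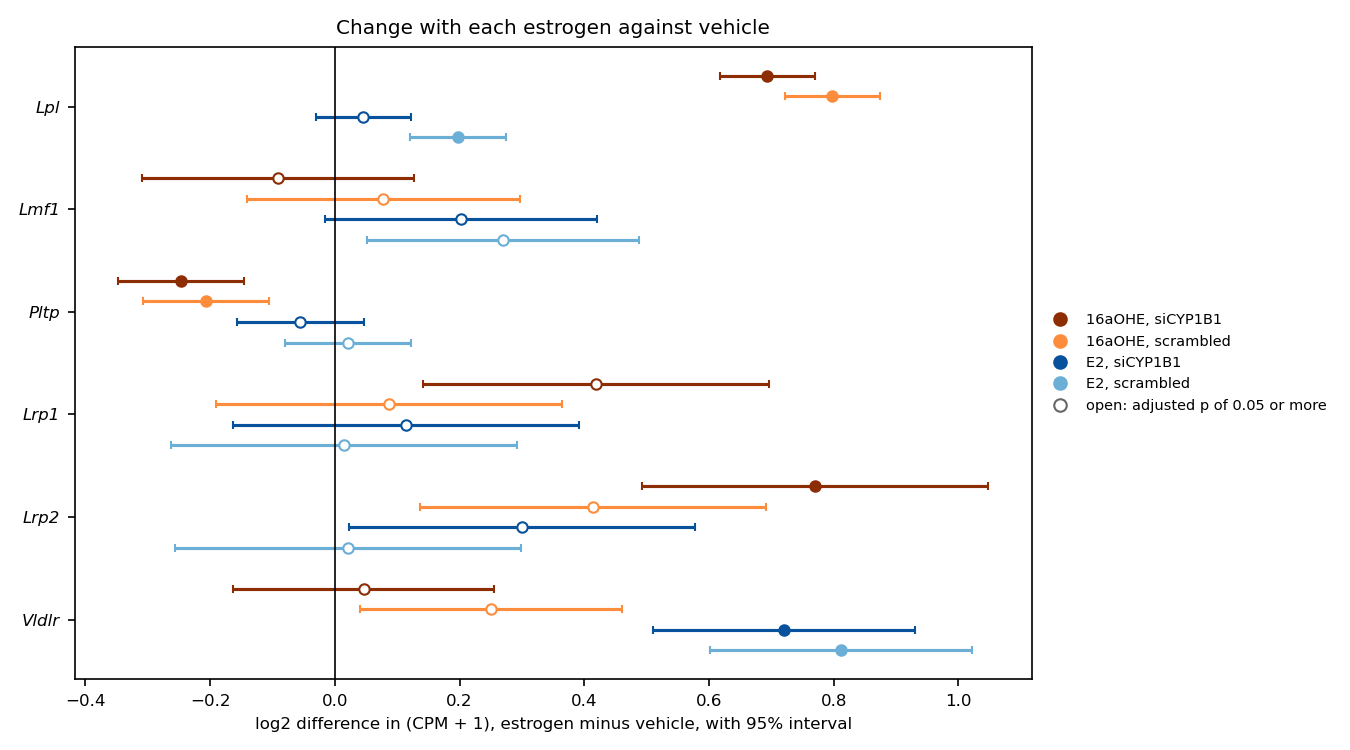
Differences on the log2(CPM + 1) scale of 16aOHE and E2 against vehicle in siCYP1B1 and scrambled cells for the 6 genes tested, with 95% intervals from limma; filled points have an adjusted p under 0.05. The Lpl points lie at 0.69 and 0.80 with 16aOHE and the Vldlr points at 0.72 and 0.81 with E2.

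Vldlr, the receptor gene for very low density lipoprotein, rose with E2. In scrambled cells it stood at 28.1, 27.5 and 28.0 CPM with E2, against 17.2, 14.8 and 14.4 CPM with vehicle. In siCYP1B1 cells it stood at 30.2, 30.8 and 28.7 CPM with E2, against 21.1, 13.9 and 19.1 CPM with vehicle. Every E2 library lay above every vehicle library, and the siCYP1B1 vehicle group was the widest. The log2(CPM + 1) differences were 0.81 (SE 0.101) in scrambled and 0.72 (SE 0.101) in siCYP1B1 cells, with limma adjusted p = 4.08e-06 and 1.95e-05. They ranked 20th and 18th among increases of the 11835 genes tested.

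With 16aOHE, Vldlr did not pass the test against vehicle. It stood at 19.5, 17.9 and 18.2 CPM in scrambled and 19.1, 17.2 and 18.9 CPM in siCYP1B1 cells, with differences from vehicle of 0.25 (95% interval 0.04 to 0.46, adjusted p = 0.219) and 0.05 (-0.16 to 0.26, adjusted p = 0.863). Against E2, the 16aOHE groups were lower by -0.56 and -0.67 on the log2(CPM + 1) scale (adjusted p = 0.000528 and 8.02e-05), without overlap. siCYP1B1 against scrambled siRNA gave 0.19 in vehicle, 0.10 in E2 and -0.01 in 16aOHE, and none passed. The first of these was lowered by the low library siCYP1B1 vehicle 2, without which it was 0.36 and passed (adjusted p = 0.00406). The order of the Vldlr group means ran from siCYP1B1 E2 (29.9 CPM) and scrambled E2 (27.8 CPM) through scrambled 16aOHE (18.6), siCYP1B1 16aOHE (18.4) and siCYP1B1 vehicle (18 CPM) to scrambled vehicle (15.5 CPM). The neighbours among the 4 lower groups overlapped.

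Some marker sums also moved with E2. In scrambled cells the mesothelial sum was 3915 to 4011 CPM with E2 against 4872 to 4944 CPM with vehicle, the endothelial sum 209 to 219 against 257 to 297 CPM and the fibroblast and pericyte sum 4272 to 4785 against 6562 to 6922 CPM. The smooth muscle sum was 1095 to 1120 CPM with E2 against 1096 to 1115 CPM with vehicle. Fabp4, the 1 adipocyte marker present, was at 4.28 to 5.70 against 3.38 to 4.89 CPM. Vldlr was higher with E2, where the mesothelial, endothelial and fibroblast and pericyte sums were lower. With siCYP1B1 in vehicle the mesothelial sum was also lower, at 3817 to 3993 CPM, and Vldlr was not called (0.19, limma adjusted p = 0.197). The part of the marker sums in the Vldlr values was not tested.

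Lrp1 and Lrp2 encode the largest receptors of the set. Lrp1, a clearance receptor for remnants and for protease and inhibitor complexes, stood at 910.3, 1278 and 824 CPM in siCYP1B1 cells with 16aOHE, against 859, 669 and 697 CPM with vehicle. The groups overlapped, and the difference of 0.42 on the log2(CPM + 1) scale did not pass (limma adjusted p = 0.0703). It depended on single libraries, being 0.23 without siCYP1B1 16aOHE 2 (adjusted p = 0.373), and passing at 0.53 without siCYP1B1 vehicle 1 (adjusted p = 0.0409) and at 0.55 without siCYP1B1 16aOHE 3 (adjusted p = 0.0259). Over the other 9 comparisons of groups, Lrp1 differed by -0.20 to 0.31, and none passed. The highest of these, 16aOHE against E2 in siCYP1B1 cells, passed at 0.44 without siCYP1B1 16aOHE 3 (adjusted p = 0.0387).

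Lrp2, which encodes megalin, the endocytic receptor of absorptive epithelia, was called higher with 16aOHE in siCYP1B1 cells. In siCYP1B1 cells it stood at 33.1, 47.3 and 31.2 CPM with 16aOHE, against 23.2, 19.7 and 20.3 CPM with vehicle. In scrambled cells it stood at 41.7, 32.4 and 34.9 CPM with 16aOHE, against 23.2, 26.1 and 32.0 CPM with vehicle. The groups did not overlap with either siRNA, although the margin in scrambled cells was narrow. The difference was 0.77 (SE 0.133) on the log2(CPM + 1) scale in siCYP1B1 cells (limma adjusted p = 0.00117), the 7th highest increase of all genes tested, and 0.41 in scrambled cells, which did not pass (adjusted p = 0.098). The scrambled difference did pass with only the compared groups in the fit (0.41, adjusted p = 0.0358), without siCYP1B1 16aOHE 2 (0.41, adjusted p = 0.0345) and without scrambled vehicle 3 (0.54, adjusted p = 0.0451). Against E2, the differences were 0.47 in siCYP1B1 and 0.39 in scrambled cells (adjusted p = 0.0171 and 0.0438). E2 against vehicle gave 0.30 in siCYP1B1 and 0.02 in scrambled cells, and neither passed (adjusted p = 0.102 and 0.930). That in siCYP1B1 cells passed with only the compared groups (0.30, adjusted p = 0.0154) and without siCYP1B1 16aOHE 2 (0.30, adjusted p = 0.0451). With siCYP1B1 against scrambled siRNA, Lrp2 gave -0.34 in vehicle, -0.06 in E2 and 0.02 in 16aOHE, and none passed. That in vehicle passed with only the compared groups (-0.34, adjusted p = 0.0191), without siCYP1B1 16aOHE 2 (-0.34, adjusted p = 0.0311) and without scrambled vehicle 1 (-0.44, adjusted p = 0.038). The interaction with 16aOHE was 0.36 (adjusted p = 0.966).

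The Lrp1 and Lrp2 transcripts span 14.89 and 15.46 kb, and both genes moved between libraries of the same group together with other long transcripts. For each library, the level of the 232 tested genes with transcripts of at least 10 kb was taken relative to the 4931 genes of 1 to 3 kb, leaving out the genes described here. Over the 18 deviations from group means, Pearson's r with this level was 0.80 for Lrp1, 0.72 for Lrp2, -0.58 for Pltp, -0.28 for Vldlr, -0.18 for Lpl and 0.08 for Lmf1, and Lrp1 and Lrp2 correlated at 0.88. These are descriptions over libraries that share their groups and differ in estimated depth. The level was 0.02, 0.03 and 0.23 in siCYP1B1 16aOHE libraries 3, 1 and 2, against -0.12 to -0.02 in siCYP1B1 vehicle, on a log2 scale. In library 2 it was the highest of all, and so were Lrp1 and Lrp2. Without that library, the Lrp2 difference of 16aOHE from vehicle in siCYP1B1 cells was 0.59 (adjusted p = 0.00904). The difference from E2 was then 0.29 and no longer passed (adjusted p = 0.131). With the long-transcript level as a covariate, an alternative chosen after seeing the data, these differences were 0.48 (adjusted p = 0.0481) and 0.25 (adjusted p = 0.161), and that of Lrp1 from vehicle was 0.08 (adjusted p = 0.822). The same covariate took the falls of Pltp in siCYP1B1 cells to -0.17 against vehicle (adjusted p = 0.123) and -0.13 against E2 (adjusted p = 0.0742). The covariate comes from these same libraries and differed without overlap between the siCYP1B1 groups compared. Removal of an estrogen effect and of a library effect therefore cannot be told apart here. The 16aOHE call of Lrp2 against E2 in scrambled cells was lost without any 1 of 8 libraries.

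**Figure D3:**
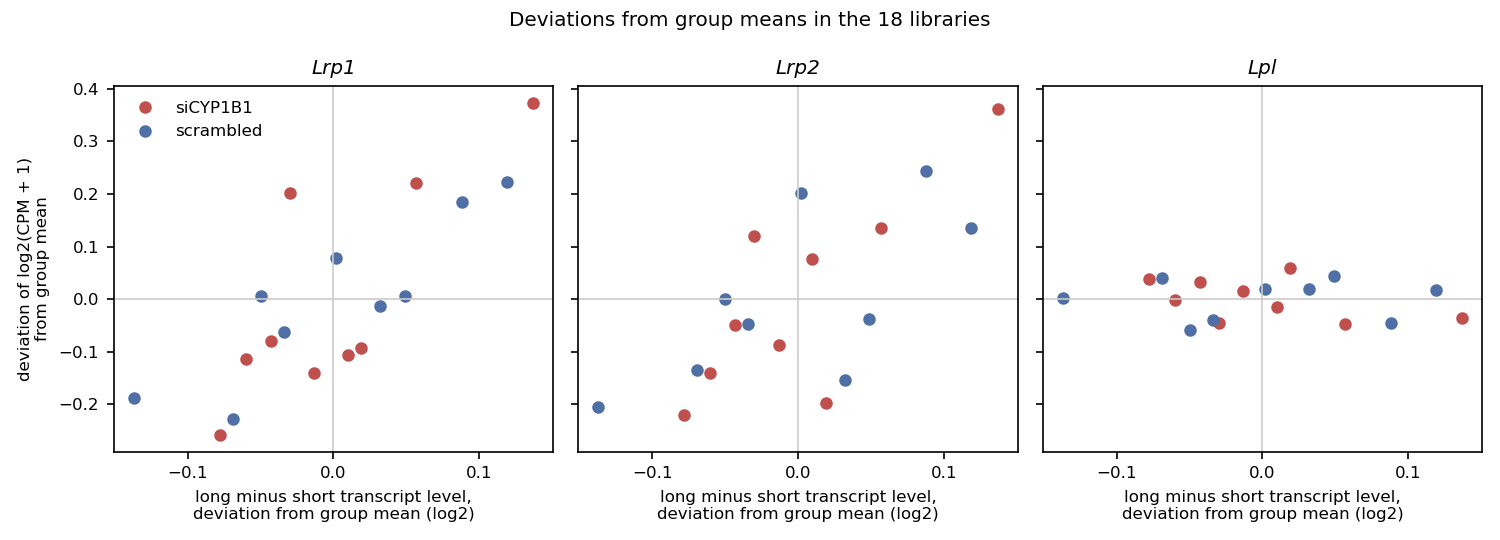
Deviation of each library from its group mean in Lrp1, Lrp2 and Lpl (vertical, log2(CPM + 1)) against the deviation in the level of transcripts of at least 10 kb relative to those of 1 to 3 kb (horizontal, log2), for 18 libraries. Lrp1 and Lrp2 followed the long transcripts (r of 0.80 and 0.72), and Lpl deviated by no more than 0.059 in any library.

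Cd36, the fatty acid translocase and scavenger receptor gene, was close to the detection limit. It ranged from 0.0907 to 0.719 CPM, or 1.99 to 15 estimated reads per library, and fell under the minimum mean of 1 CPM for the test. Group means were 0.301, 0.218 and 0.163 CPM with siCYP1B1 in the 16aOHE, E2 and vehicle arms, against 0.353, 0.395 and 0.417 CPM with scrambled siRNA, and the libraries overlapped in every arm. When all genes were tested with no minimum, the siRNA difference averaged over the arms was -0.18 on the log2(CPM + 1) scale (limma adjusted p = 0.0487), and no other comparison of Cd36 passed.

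Of the 7 genes, 6 were above the minimum and tested. Since the genes were picked with these values known, their counts are set beside the share of all genes called and nothing is read from the difference. With 16aOHE against vehicle, 1 gene was called higher (Lpl) and 1 lower (Pltp) in scrambled cells, where 3.84% of all genes tested were called, 1.76% higher and 2.08% lower. In siCYP1B1 cells 2 genes were higher (Lpl and Lrp2) and 1 lower (Pltp), where 5.40% of all genes were called. With E2 against vehicle, 2 genes were higher (Lpl and Vldlr) in scrambled cells, where 30.0% were called, 18.6% higher and 11.4% lower, and 1 (Vldlr) in siCYP1B1 cells, where 27.5% were called. Of the calls over all genes with E2 in scrambled cells, 62% were higher on the deposited scale and 46.9% with median-of-ratios scaling. With 16aOHE against E2, 4 genes were called with each siRNA, Lpl and Lrp2 higher and Pltp and Vldlr lower, where 18.4% of genes were called in scrambled and 18.3% in siCYP1B1 cells.

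With siCYP1B1 against scrambled siRNA, Lpl was the 1 gene called in each arm, where 20.6% of genes were called in vehicle (11.5% higher and 9.12% lower), 21.2% in E2 and 19.7% in 16aOHE. Of the calls over all genes in vehicle, 55.7% were higher on the deposited scale and 41.4% with median-of-ratios scaling. Averaged over the arms, 2 of the 6 genes (Lpl and Lmf1) were called, where 44.7% of genes were. For the interactions of siRNA with E2 and with 16aOHE, limma called 0 of the 6 genes and 0 of all genes tested (0% each). At an unadjusted p under 0.05 there were 470 and 596 genes, or 3.97% and 5.04%, of which 1 (Lpl with E2) and 0 were in the set. The median log2(CPM + 1) difference of the 6 genes was 0.17 with 16aOHE and 0.11 with E2 against vehicle in scrambled cells, beside 0.00 and 0.03 for all genes tested.

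**Figure D4:**
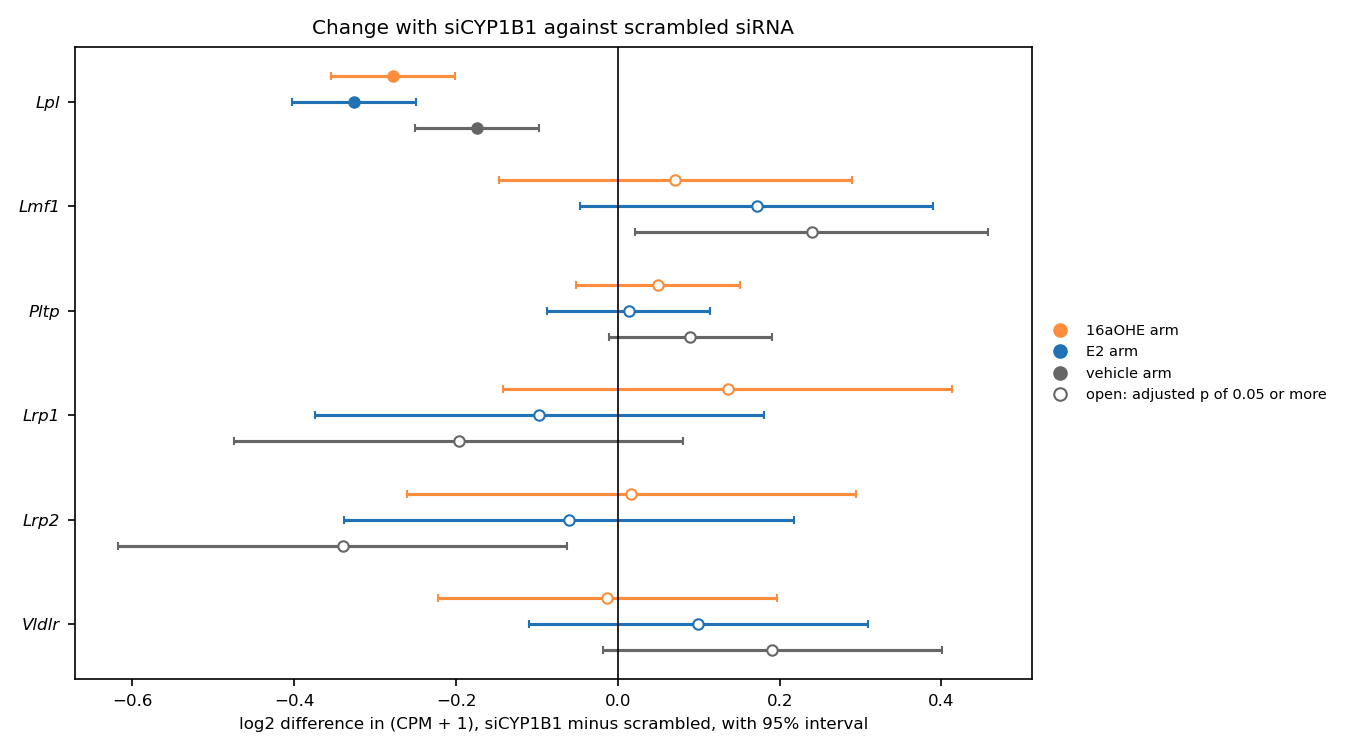
Differences on the log2(CPM + 1) scale of siCYP1B1 against scrambled siRNA in the 16aOHE, E2 and vehicle arms for the 6 genes tested, with 95% intervals from limma; filled points have an adjusted p under 0.05. Lpl lay at -0.28, -0.33 and -0.17, and no other gene was called within an arm.

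The other genes that make, inhibit or accompany lipoprotein lipase were followed through a list of 19, of which 13 had a row and 11 were tested. With E2 in scrambled cells 5 of the 11 rose and 2 fell, with 16aOHE 0 rose and 2 fell, and with siCYP1B1 in vehicle 1 rose and 1 fell. Of all genes tested, 18.6% rose and 11.4% fell with E2, 1.76% and 2.08% with 16aOHE, and 11.5% and 9.12% with siCYP1B1, and the counts of this and the following lists stand beside these shares. The median differences were 0.14, 0.03 and -0.05, beside 0.03, 0.00 and 0.03 for all genes. Angptl4, a secreted inhibitor of the lipase, fell to 5.78 ± 0.265 CPM with E2 in scrambled cells, against 11.1 ± 1.85 CPM with vehicle (SD, n = 3 each; -0.83, limma adjusted p = 3.29e-06). With 16aOHE it stood at 11.3 ± 1.32 CPM, and the difference from vehicle was 0.03 (adjusted p = 0.941). In siCYP1B1 cells it fell to 6.59 ± 0.546 CPM with E2, against 13.5 ± 0.772 CPM with vehicle (-0.94, adjusted p = 6.83e-07). Lipg, which encodes endothelial lipase, rose to 14.5 CPM with E2, against 11.6 CPM with vehicle (0.30, adjusted p = 0.0291). Pnpla2, the first lipase of triglyceride breakdown in droplets, rose to 47.6 CPM with E2, against 34.5 CPM with vehicle (0.45, adjusted p = 4.3e-05). Pnpla2 was also higher with siCYP1B1 in vehicle by 0.25 (adjusted p = 0.0127). It was not called with siCYP1B1 in the E2 and 16aOHE arms (0.09 and 0.16, adjusted p = 0.382 and 0.114).

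Pcsk6, a proprotein convertase, fell with E2 by 0.31 and with 16aOHE by 0.23 (adjusted p = 1.84e-05 and 0.00207). Mgll, monoglyceride lipase, fell to 19.3 CPM with 16aOHE against 24.4 CPM with vehicle in scrambled cells (-0.32, adjusted p = 0.0237), and to 18.2 CPM with siCYP1B1 in vehicle (-0.41, adjusted p = 0.000868). Mgll was also called lower with siCYP1B1 in the E2 and 16aOHE arms (-0.35 and -0.26). Gpihbp1, which anchors the lipase on capillaries, and the apolipoprotein genes Apoc1, Apoc2, Apoc3 and Apoa5 were not among the rows analysed.

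Of 20 other genes of the lipoprotein receptor family and its partners, 12 were tested. With E2 in scrambled cells 4 rose and 0 fell, with 16aOHE 0 passed in either direction (limma; 1 had an unadjusted p under 0.05), and with siCYP1B1 in vehicle 0 rose and 2 fell. The median differences were 0.14, 0.03 and 0.05. Lrp4 rose to 4.97 CPM with E2, against 2.98 CPM with vehicle (0.58, adjusted p = 0.00274). Lrpap1, the chaperone that keeps ligands off these receptors during their synthesis, rose to 86.8 CPM against 74.4 CPM (0.22, adjusted p = 0.000165). Dab2, an adaptor for their uptake, was lower with siCYP1B1 in vehicle (-0.19, adjusted p = 0.00479). The E2 and 16aOHE arms also called Dab2 lower with siCYP1B1 (-0.29 and -0.30, adjusted p = 9.65e-05 and 9.27e-05). Lrp6, a Wnt co-receptor, was lower in vehicle by 0.16 (adjusted p = 0.0291). It was also called lower with siCYP1B1 in E2 (-0.15), but not in 16aOHE (-0.01, adjusted p = 0.8975).

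Of 14 other scavenger receptors, 8 were tested. With siCYP1B1 in vehicle 0 rose and 3 fell, with E2 in scrambled cells 2 rose and 2 fell, and with 16aOHE 1 rose and 2 fell. The median differences were -0.10, 0.06 and 0.04. Olr1, a receptor for oxidized LDL, stood at 82.2 ± 2.05 CPM with siCYP1B1 against 125 ± 5.35 CPM with scrambled siRNA in vehicle (-0.60, adjusted p = 1.48e-08). It was also called lower in the other arms, at 82.6 against 131 CPM in E2 (-0.66) and 87.6 against 128 CPM in 16aOHE (-0.55). Scara5, a ferritin receptor, fell to 2.00 CPM with E2 and 2.34 CPM with 16aOHE, against 4.58 CPM with vehicle (adjusted p = 8.76e-05 and 0.00485). Cxcl16, whose product is a chemokine and also binds oxidized lipoprotein, was called lower with siCYP1B1 in vehicle (-0.47), and with E2 and 16aOHE in scrambled cells (-0.47 and -0.50). It was not called with siCYP1B1 in the E2 and 16aOHE arms (-0.24 and -0.10, adjusted p = 0.0767 and 0.525), nor with E2 and 16aOHE in siCYP1B1 cells (-0.25 and -0.13, adjusted p = 0.0622 and 0.502). Scarb2, a lysosomal membrane protein, was higher with E2 and 16aOHE in scrambled cells (0.18 and 0.13), and Colec12 with E2 (0.19).

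Of 15 genes for lipoprotein components, cholesterol efflux and their nuclear receptors, 13 were tested. With E2 in scrambled cells 4 rose and 2 fell, with 16aOHE 0 passed (limma; 2 had an unadjusted p under 0.05), and with siCYP1B1 in vehicle 1 rose and 2 fell. The median differences were 0.08, -0.03 and -0.03. The efflux transporter Abca1 fell to 214 CPM with E2 against 270.1 CPM with vehicle, and Abcg1 to 10.9 against 14.4 CPM (-0.33 and -0.37, adjusted p = 0.00336 and 0.00782). Npc1, which moves cholesterol out of lysosomes, rose to 86.8 against 66.8 CPM (0.37, adjusted p = 0.00017), and Nr1h2, which encodes the liver X receptor beta, by 0.24. With siCYP1B1 in vehicle, Abcg1 and Npc2 were lower (-0.45 and -0.20) and Rxra, the common partner of these receptors, was higher (0.17). Npc2 was also called lower in the E2 and 16aOHE arms (-0.28 and -0.22). Abcg1 was called lower in E2 (-0.38) but not in 16aOHE (-0.23, adjusted p = 0.121). Rxra was called in neither (0.03 and 0.08, adjusted p = 0.598 and 0.181).

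Of 26 genes for fatty acid uptake, binding, activation and storage, 16 were tested. With siCYP1B1 in vehicle 5 rose and 0 fell, with E2 in scrambled cells 6 rose and 3 fell, and with 16aOHE 0 passed (limma; 3 had an unadjusted p under 0.05). The median differences were 0.11, 0.16 and 0.02. Pparg, a nuclear receptor that drives fat storage genes in adipocytes, stood at 9.82 ± 0.288 CPM with siCYP1B1 against 6.47 ± 0.461 CPM with scrambled siRNA in vehicle (0.54, adjusted p = 0.000133), and rose with E2 by 0.28 (adjusted p = 0.0166). Plin2, a coat protein of lipid droplets, stood at 158 ± 4.31 CPM with siCYP1B1 against 127 ± 3.10 CPM (0.31, adjusted p = 2.25e-05). Pparg and Plin2 were also called higher with siCYP1B1 in the E2 arm (0.48 and 0.27) and the 16aOHE arm (0.53 and 0.21). With E2, Dgat1, which makes triglycerides, rose by 0.29, while the fatty acid transporter Slc27a6 and the binding protein Fabp5 fell by 0.54 and 0.52. The lists were drawn up with earlier results of these data known, and their counts and medians are descriptions.

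By Pearson's r over the 18 libraries, the genes whose log2(CPM + 1) pattern was most like that of Lpl were Cxcl14 (0.958) and Pcdh10 (0.951). Cxcl14 averaged 63.0 CPM with 16aOHE, 50 CPM with E2 and 44.6 CPM with vehicle in scrambled cells. Most like Vldlr were Usp11 (0.962) and Xdh (0.949), with Xdh at 456 CPM with E2 against 325 CPM with vehicle in scrambled cells. Most like Lrp1 were Hspg2 (0.925) and Herc1 (0.911), with transcripts of 14.2 and 15.2 kb, and most like Lrp2 were Flnc (0.866) and Lrp1 (0.853). Pltp was most like Chaf1b (0.89) and Rxra (0.881), and Lmf1 most like Ciart (0.877) and Eefsec (0.863). The libraries share their groups, so these values describe the pattern over the design.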

How the data were processed

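The authors deposited 1 table of CPM (counts scaled to the library's total over the genes listed, with 0.0001 added to each value) for 15288 genes in 18 libraries. The tools were TopHat2 and Partek and the build mm10, per the submitters' processing notes. Tool versions, annotation and strand setting were not given in those sources. Depth was estimated from the steps of low values (0.02 to 1 CPM), of which 94.3% to 95.8% were whole reads within 0.1 reads. As the rest were fractional, no test for whole counts was run. Pearson's r of log values ran from 0.9969 to 0.9986 for libraries of 1 group and from 0.9934 to 0.9980 otherwise.

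Values were tested as log2(CPM + 1), which understates the change of low genes, by limma (version 3.58.1, R version 4.3.3) with trended eBayes and 1 coefficient per group. A mean of 1 CPM or more was required, which 11835 genes met and 3453 did not. P-values were adjusted over those genes by Benjamini-Hochberg, separately for 12 contrasts, and called under 0.05. The fit was checked on simulated data with the same setting of spread for every gene and the same depth for every library. These settings are simpler than the real libraries, so that check says nothing on the calls of single genes here. Transcript lengths are from GENCODE M21 (96.4% of tested genes) and promoters from RefSeq GRCm38.p6, where 6 of the 7 genes matched. Table ends are given as the stop less 1.

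The 7 genes and the gene and marker lists were chosen with earlier results of these data known. Named genes are all 7, Cyp1b1, up to 2 called genes per direction and list with the largest change in each comparison with scrambled vehicle, and the 2 genes most correlated with each. Lpl has no printed promoter. Some genes of the receptor list are not reported here. Alternatives tried were pseudocounts of 0.1 and 5, a minimum of 5 CPM or none, median-of-ratios and quantile scaling, no trend, only the groups compared, each library left out and a long-transcript covariate, which was added after seeing the data.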

Additional observations from a re-analysis of the deposited data

How the results depend on the processing

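The calls of Lpl and Vldlr, and that of Lrp2 with 16aOHE against vehicle in siCYP1B1 cells, kept direction and threshold under all 26 or 27 alternatives tried for each. Of the 38 changes of sign among the log2 differences of single genes, 0 concerned a called value. Scaling moved the median difference of all genes by at most 0.041.

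The number of the 6 genes called was, with only the groups compared, 2 instead of 1 for siCYP1B1 in vehicle, 2 instead of 1 for E2 in siCYP1B1 cells and 3 instead of 2 for 16aOHE against vehicle in scrambled cells, Lrp2 being the gene gained each time. With median-of-ratios scaling it was 1 instead of 2 for siCYP1B1 averaged over the arms, without the trend 1 instead of 2 for 16aOHE against vehicle in scrambled cells, and with the long-transcript covariate 2 instead of 4 for 16aOHE against E2 in siCYP1B1 cells. Leaving out 1 library gave 1 to 2 for siCYP1B1 in vehicle, 1 to 4 averaged over the arms (4 without siCYP1B1 16aOHE 2), 1 to 2 for E2 in siCYP1B1 cells, 1 to 3 for 16aOHE in scrambled cells and 2 to 5 for 16aOHE against E2 in siCYP1B1 cells. Over all genes, calls for 16aOHE against vehicle numbered 248 in scrambled cells without scrambled 16aOHE 1, where all libraries gave 454. In siCYP1B1 cells they numbered 306 without siCYP1B1 16aOHE 2 and 202 with the covariate, where all libraries gave 639. The cause was not tested.

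Sign changes of uncalled differences with median-of-ratios scaling were -0.008 for Pltp with siCYP1B1 under E2, and -0.015, -0.023 and -0.015 for Pltp, Lrp1 and Lrp2 with E2 in scrambled cells. Quantile scaling gave -0.003 for Lrp2 with siCYP1B1 under 16aOHE and -0.025 with E2 in scrambled cells. The covariate gave -0.07 for Lrp2 and 0.01 for Vldlr with siCYP1B1 under 16aOHE, -0.032 and -0.036 for Lrp1 with 16aOHE against vehicle and against E2 in scrambled cells, and 0.011 for the Pltp interaction with 16aOHE.

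Leaving out 1 library, ranges that crossed 0 for siCYP1B1 under E2 were -0.013 to 0.027 (Pltp), -0.211 to 0.014 (Lrp1) and -0.129 to 0.038 (Lrp2). Under 16aOHE they were -0.008 to 0.149 (Lmf1), -0.013 to 0.105 (Pltp), -0.051 to 0.265 (Lrp1), -0.164 to 0.127 (Lrp2) and -0.039 to 0.031 (Vldlr). With E2 in scrambled cells they were -0.024 to 0.066 (Pltp), -0.097 to 0.128 (Lrp1) and -0.083 to 0.143 (Lrp2). With 16aOHE they were -0.001 to 0.157 (Lmf1) and -0.008 to 0.179 (Lrp1) in scrambled cells, -0.122 to 0.164 (Vldlr) in siCYP1B1 cells and, against E2 in scrambled cells, -0.041 to 0.184 (Lrp1). The interactions with E2 gave -0.174 to 0.03 (Lmf1), -0.015 to 0.211 (Lrp1) and -0.259 to 0.027 (Vldlr), and that with 16aOHE -0.102 to 0.015 (Pltp).

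No paired analysis was possible because the labels carry no replicate numbers. Depth limits Cd36, at 1.99 to 15 reads per library, to a level near detection.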
